A study of Homo sapiens with 6 samples.

Results

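The BCL2 family genes were described here as 10 members, picked by gene symbol out of 16670 genes with values. Earlier results of these data were known when the members were chosen. They fall into 3 roles: 3 guards (BCL2, BCL2L1 and MCL1), 2 effectors (BAX and BAK1) and 5 BH3-only genes (BID, BCL2L11, BBC3, PMAIP1 and HRK). All 10 passed the filter on low values, HRK only through its salinomycin libraries. RNA came from A549, an established cell line of a human non-small cell lung cancer. Both groups had first spent 1 week with alisertib, a drug that blocks Aurora kinase A and so disturbs mitosis, to bring them into senescence, a lasting stop of cell division. The untreated group (3 libraries) received nothing more, and the salinomycin group (3 libraries) was given 2.5 µM of salinomycin, an ionophore that carries alkali metal ions across membranes, for 48 h. The labels call the libraries of a group biological replicates, and no libraries of A549 cells without alisertib were analysed here.

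BCL2 family proteins decide whether the outer membrane of the mitochondrion stays closed. The effectors BAX and BAK form pores in it, through which cytochrome c reaches the cytosol and starts the caspase cascade of apoptosis. The guards hold the effectors and the BH3-only proteins in check, and BH3-only proteins, made or activated under stress, bind guards or switch effectors on. Senescent cells are known to lean on guards, BCL-xL above all, which is why guard inhibitors are used to kill them. Most of this control runs through protein binding, cleavage and turnover, none of which was measured here.

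Values are normalised units: the deposited whole numbers less the 1 that each carries, divided by a trimmed-mean (TMM) factor for each library. Reads estimated from the steps of the low values came to between 13539959 and 19641149 per library. The keratin genes KRT8 and KRT18, markers of epithelial cells, lay at 65855 units or more without salinomycin, while EPCAM, a further epithelial marker, reached only 37.3 to 55.3. The summed level of 5 epithelial markers, nearly all of it KRT8 and KRT18, was 152000 to 168000 units without and 33800 to 38000 with salinomycin. Of the 5, KRT19 alone had a higher mean with salinomycin, 3164 against 1898 units, while EPCAM went from a mean of 46.7 to 19.0. The 3 fibroblast markers summed to 542 to 758 units without and 401 to 437 with salinomycin, most of it COL1A1, with COL1A2 near 0. The 3 endothelial markers stayed at 15.1 units or less, and CD14, the 1 leukocyte marker of 4 with values, went from a mean of 201 to 30.2 units. The part of these markers in the results below was not tested. In bulk RNA fewer cells of a kind and less RNA per cell cannot be told apart. Over all tested genes the median log2 change was 0.022 under TMM and 0.212 when only the library total was used, so a change below is a change against the rest of the transcriptome.

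With salinomycin 5 of the 10 genes rose and 3 fell at an adjusted p under 0.05 (limma with Benjamini-Hochberg adjustment over 13088 tested genes). BAX and MCL1 did not pass. Of all tested genes 81.9% passed (41.6% higher and 40.2% lower), so a call by itself does not set the family apart. The members differed from each other in direction and size, from a 15.5-fold rise of HRK to a 4.18-fold fall of BID. Their median log2 change was 0.34, against 0.022 over all tested genes. The libraries of the groups did not overlap for 8 members, which held for 83% of all tested genes.

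**Figure D1:**
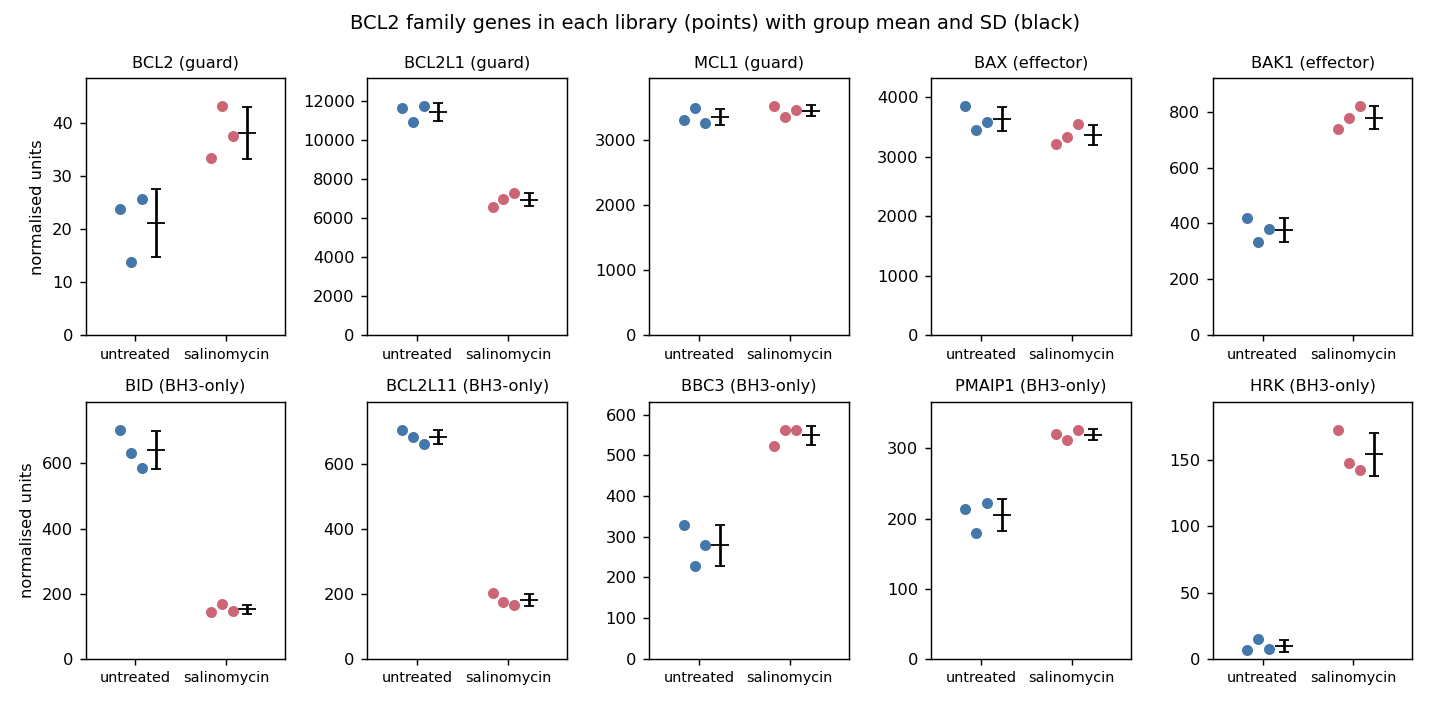
Normalised units (vertical axes, each from 0) of the 10 genes in each of the 6 libraries, with black bars for the group mean and SD (n = 3). The groups lie apart in 8 panels and overlap for MCL1 and BAX.

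Among the guards, the abundant BCL2L1 fell, the scarce BCL2 rose and MCL1 did not pass. BCL2L1, the gene of BCL-xL (chromosome 20, 31664452 to 31723989, GRCh38), was at 11676, 10920 and 11757 units in untreated replicates 1, 2 and 3. With salinomycin it was at 6579, 6993 and 7282 units, so that the highest salinomycin library lay well under the lowest untreated one. The fall was 1.65-fold (log2 change -0.72, SE 0.054; limma adjusted p = 1.09e-07). Annotated exons of ABALON, on the opposite strand, cover 43% of the exon length of BCL2L1, and strand handling was not given in the sources used here, so reads of the antisense gene cannot be told apart.

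MCL1, whose product is a short-lived guard (chromosome 1, 150574551 to 150579738), was at 3301, 3486 and 3261 units without and 3524, 3358 and 3466 units with salinomycin. These ranges overlap, and the log2 change of 0.043 had a 95% interval of -0.063 to 0.15 (limma adjusted p = 0.426). When only the library total was used for scaling MCL1 passed as higher (0.23, adjusted p = 0.000907), and with upper-quartile scaling its sign turned (-0.043, adjusted p = 0.433). BCL2, the founding member of the family (chromosome 18, 63123346 to 63320128), was scarce, at 23.8, 13.8 and 25.6 units without salinomycin. It rose to 33.3, 43.1 and 37.5 units, 1.81-fold (log2 change 0.86, SE 0.25; limma adjusted p = 0.00724). Behind this stood an estimated 55 reads over the untreated and 131 over the salinomycin libraries, a depth-scaled ratio of 1.79 with a 95% counting interval of 1.3 to 2.5. Without untreated replicate 2, the lowest library, the log2 change was 0.60 and the adjusted p 0.023.

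The effectors parted: BAK1 rose and BAX did not pass. BAK1 (chromosome 6, 33572547 to 33580293), whose protein sits in the outer membrane at all times, was at 418, 332 and 379 units without salinomycin. With it the level was 738, 778 and 820 units, a 2.07-fold rise (log2 change 1.05, SE 0.087; limma adjusted p = 2.6e-07). BAX (chromosome 19, 48954815 to 48961798), whose protein waits in the cytosol and moves to the mitochondrion when activated, was at 3855, 3455 and 3590 units without salinomycin. It lay at 3216, 3333 and 3553 units with it, and the groups overlap. The log2 change of BAX was -0.11 with a 95% interval of -0.23 to 0.016 (limma adjusted p = 0.0951). Its sign turned with library size alone (0.082), and it passed as lower with upper-quartile scaling (-0.20, adjusted p = 0.00804). It also passed without untreated replicate 2 (-0.14, adjusted p = 0.0457) and without salinomycin replicate 3 (-0.16, adjusted p = 0.0336).

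**Figure D2:**
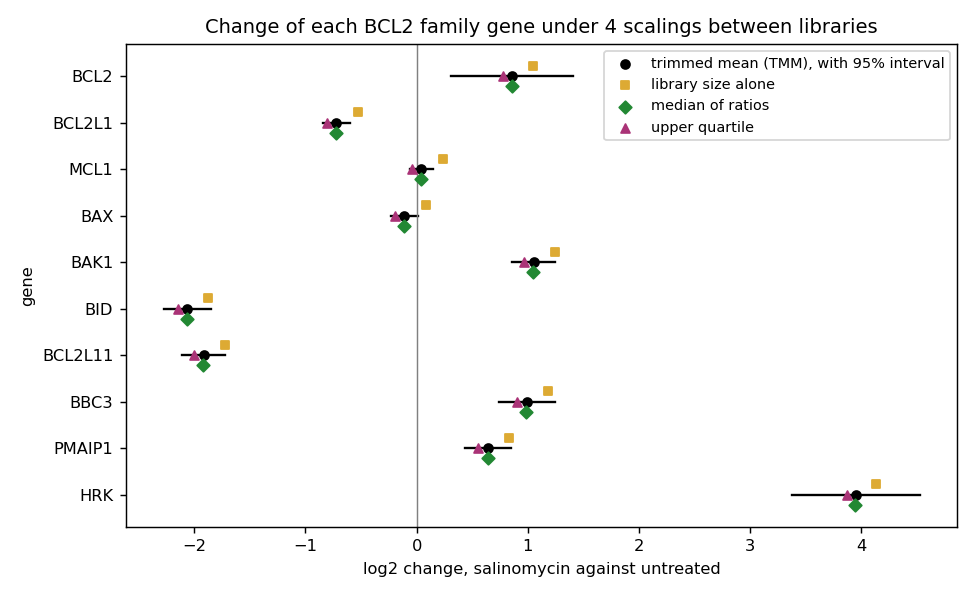
Log2 change of each gene (horizontal axis) with its 95% interval under TMM scaling and with the values under other scalings. Only for BAX and MCL1 does a scaling move the value across 0.

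The BH3-only genes split into a pair that fell and a trio that rose. BID, whose product is cut by caspase-8 and links death receptors to the mitochondrion (chromosome 22, 17734138 to 17774770), was at 704, 633 and 587 units without salinomycin. The salinomycin libraries held 143, 169 and 146 units, all far under the lowest untreated value (log2 change -2.06, SE 0.096; limma adjusted p = 1.45e-09). BCL2L11, the gene of BIM, which binds every guard (chromosome 2, 111119378 to 111168447), was at 707, 685 and 662 units without salinomycin. It fell to 203, 175 and 166 units (log2 change -1.91, SE 0.087; limma adjusted p = 1.22e-09). Of all tested genes 6.78% fell more than BID and 7.64% more than BCL2L11. Exons of the lincRNA gene MIR4435-2HG on the opposite strand cover 10.9% of the exon length of BCL2L11.

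HRK, whose product Harakiri binds BCL-xL and which is best known from neurons (chromosome 12, 116856144 to 116881441), was near the floor of detection without salinomycin, at 6.49, 14.9 and 7.47 units. With salinomycin it was at 173, 148 and 143 units, more than in any untreated library by far, and only through these libraries did HRK pass the filter on low values (log2 change 3.95, SE 0.262; limma adjusted p = 3.47e-08). An estimated 26 reads over the untreated and 542 over the salinomycin libraries gave a depth-scaled ratio of 15.6, with a 95% counting interval of 10.6 to 24.2. Among tested genes 0.955% had a larger rise. With a pseudocount of 8 in place of 1 the log2 change of HRK was 3.23, since the untreated level is low.

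BBC3, the gene of PUMA, which like BIM binds every guard (chromosome 19, 47220822 to 47232766), was at 330, 228 and 280 units without salinomycin. It reached 523, 563 and 561 units, a 1.99-fold rise (log2 change 0.99, SE 0.115; limma adjusted p = 5.92e-06). PMAIP1, the gene of NOXA, which binds MCL1 and BFL-1 (chromosome 18, 59899948 to 59904306), was at 214, 180 and 222 units without salinomycin. With it the libraries held 320, 312 and 327 units, a 1.56-fold rise (log2 change 0.64, SE 0.096; limma adjusted p = 5.44e-05). Untreated replicate 2 was the lowest untreated library for BBC3 and PMAIP1, and for 6 of the 10 members in all. Without that library BBC3 and PMAIP1 still passed, with log2 changes of 0.85 and 0.55.

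The stretches before the start sites of the BH3-only genes are shown because these genes moved in opposite directions, and that of BAX, which did not pass, because it held the most E-boxes. They are the 250 bases before a RefSeq start (GRCh38.p14), less any base within a GENCODE 29 exon, 5′ to 3′, for the 3 BH3-only genes that rose, the 2 that fell and BAX. Those of BCL2L11 and BID lie inside the gene, between exons of longer GENCODE transcripts. Capitals mark matches, on either strand, to TGATGNAA (the ATF4-C/EBP composite), TGACGT (the cyclic AMP response element half-site), CACGTG (the E-box), GTAAACA (forkhead), TTTNGCGC (E2F) and TGANTCA (AP-1).
HRK (chr12:116881442-116881691, minus strand): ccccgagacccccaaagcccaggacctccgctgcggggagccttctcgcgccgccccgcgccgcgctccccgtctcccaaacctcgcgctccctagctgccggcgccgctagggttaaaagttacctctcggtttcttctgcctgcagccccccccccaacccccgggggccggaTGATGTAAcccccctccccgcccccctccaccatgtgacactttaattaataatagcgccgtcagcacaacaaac
BBC3 (chr19:47232767-47232917, minus strand): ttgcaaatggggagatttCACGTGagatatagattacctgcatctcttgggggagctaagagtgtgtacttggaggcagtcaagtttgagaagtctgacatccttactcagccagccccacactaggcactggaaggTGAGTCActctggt
PMAIP1 (chr18:59899746-59899947, plus strand): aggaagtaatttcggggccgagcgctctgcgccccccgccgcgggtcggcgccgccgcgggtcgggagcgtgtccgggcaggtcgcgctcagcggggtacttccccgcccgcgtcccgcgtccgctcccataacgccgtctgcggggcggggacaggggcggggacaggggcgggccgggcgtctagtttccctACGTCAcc
BCL2L11 (chr2:111120664-111120913, plus strand): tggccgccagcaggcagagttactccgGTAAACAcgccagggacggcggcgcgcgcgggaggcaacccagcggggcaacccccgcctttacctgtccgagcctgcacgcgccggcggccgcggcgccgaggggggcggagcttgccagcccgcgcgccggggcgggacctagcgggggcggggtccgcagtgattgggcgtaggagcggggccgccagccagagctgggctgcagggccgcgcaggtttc
BID (chr22:17774043-17774292, minus strand): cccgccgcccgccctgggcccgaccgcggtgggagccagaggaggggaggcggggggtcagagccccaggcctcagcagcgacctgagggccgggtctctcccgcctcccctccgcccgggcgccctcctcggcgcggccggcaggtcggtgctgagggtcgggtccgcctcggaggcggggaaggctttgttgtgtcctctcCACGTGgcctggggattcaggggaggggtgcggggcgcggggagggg
BAX (chr19:48954625-48954814, plus strand): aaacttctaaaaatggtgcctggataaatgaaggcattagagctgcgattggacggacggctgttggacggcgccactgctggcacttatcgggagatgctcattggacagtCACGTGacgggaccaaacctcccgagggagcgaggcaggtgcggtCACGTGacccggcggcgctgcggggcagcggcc

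HRK holds TGATGTAA from 75 to 68 bases before its start, and TGATGNAA is found in 3.14% of 35116 such windows of all genes. PMAIP1 holds ACGTCA, the half-site TGACGT read on the other strand, 56 to 51 bases before its start, and 7.1% of windows hold that half-site. In BBC3 an E-box and TGAGTCA are matched, motifs present in 6.34% and 6.57% of windows. BCL2L11 holds GTAAACA 223 to 217 bases before its start, which 2.98% of windows do. The BID window shown, among 5 for that gene, has an E-box 47 to 42 bases before its start, as has 1 window that overlaps it, while the other 3 hold none. BAX has 4 E-boxes in its whole window, 2 of them in the stretch shown. Among members not shown, a BCL2L1 window holds TTTNGCGC, found in 1.51% of windows, and those of BAK1 and BCL2 match none of the 6 motifs. In all 7 motifs were searched. The one not marked was GGGCGG (the GC box), which 42.6% of windows hold. It was matched in windows of BAK1, BAX, BCL2L11, BID, HRK and PMAIP1. Windows were found for 9 of the 10 members, all but MCL1, the motifs were chosen after these sequences had been read, and a match is a run of letters, not a measured binding site.

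Levels can be set against each other only per length, and units per kilobase of exon were used for this. Without salinomycin BCL2L1 stood first at 3455 ± 139 units per kilobase (SD, n = 3), then BAX at 1404 ± 78.7 and MCL1 at 766 ± 27.5. BAK1 and BID followed at 170 ± 19.6 and 144 ± 13.2, with overlapping libraries. BCL2L11 came next at 103 ± 3.41, then PMAIP1 and BBC3, again overlapping, at 91.8 ± 10.02 and 87.7 ± 16.0. Libraries of BCL2L11 and BBC3 overlapped too, with 99.4 in the lowest BCL2L11 library and 103.7 in the highest BBC3 library. BCL2 and HRK closed the order with overlapping libraries, at 1.79 ± 0.539 and 1.403 ± 0.671 units per kilobase.

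With salinomycin the first 4 places were unchanged, with BCL2L1 at 2098 ± 107, BAX at 1302 ± 66.1, MCL1 at 789 ± 19.3 and BAK1 at 352 ± 18.7 units per kilobase. BBC3 and PMAIP1 now followed BAK1, at 173 ± 7.15 and 143 ± 3.25 units per kilobase. BID at 34.3 ± 3.18, BCL2L11 at 27.3 ± 2.86 and HRK at 22.6 ± 2.37 came after them, and libraries of BCL2L11 and HRK overlapped. BCL2 was last at 3.23 ± 0.418. The order depends on the exon length taken: by the length of the principal transcript BAX stood above BCL2L1 in both groups, BCL2L11 stood above BID in both groups, and without salinomycin BCL2L11 and BID stood above BAK1 and BBC3 above PMAIP1.

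Summed per kilobase of all exons, the 3 guards made up 67.9% ± 1.06 of the 10 genes' total without and 58.5% ± 0.191 with salinomycin (SD, n = 3 per group). The 2 effectors made up 25.3% ± 0.748 and 33.4% ± 0.447. By principal transcript length the guard share was 47.8% ± 1.09 and 40.2% ± 0.211 and the effector share 43.4% ± 0.824 and 52.2% ± 0.539, the same direction. The effector sum itself moved little, from 1574 ± 97.9 to 1654 ± 84.3 units per kilobase by all exons. By principal transcript it went from 4758 ± 276 to 4611 ± 235. The guard sum fell, from 4223 ± 112 to 2890 ± 99.7 by all exons and from 5242 ± 147 to 3545 ± 128 by principal transcript. The 5 BH3-only genes together held 428 ± 33.5 units per kilobase without and 400 ± 3.82 with salinomycin, or 966 ± 62.3 and 670.1 ± 4.9 by principal transcript length. Their share of the total went from 6.87% ± 0.318 to 8.10% ± 0.254 by all exons and from 8.80% ± 0.276 to 7.60% ± 0.335 by principal transcript, so its direction depends on the length used.

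Within the BH3-only genes the make-up turned over under both lengths. BID and BCL2L11 held 33.7% ± 2.12 and 24.1% ± 1.503 of the BH3-only units per kilobase without salinomycin, and 8.58% ± 0.734 and 6.82% ± 0.779 with it. BBC3 went from 20.4% ± 2.25 to 43.2% ± 1.39, PMAIP1 from 21.5% ± 1.91 to 35.8% ± 0.955 and HRK from 0.336% ± 0.183 to 5.65% ± 0.647. By principal transcript length BCL2L11 went from 46.7% ± 2.01 to 17.8% ± 1.86 and BBC3 from 15.7% ± 2.0 to 44.6% ± 1.82. These shares restate the changes of single genes on a common scale and were not tested.

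**Figure D3:**
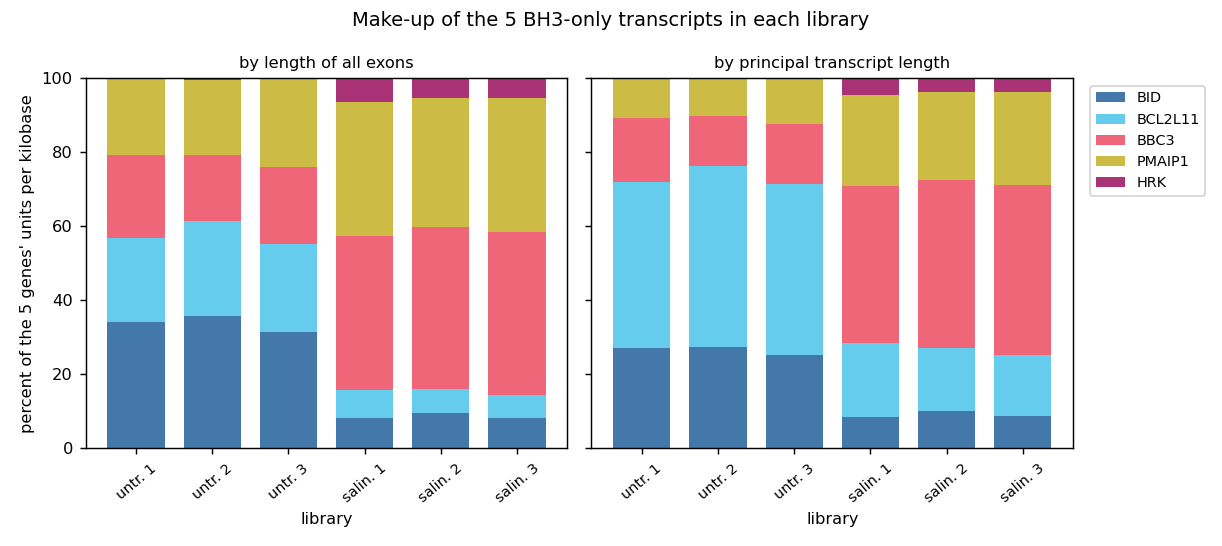
Percent of the summed units per kilobase of the 5 BH3-only genes held by each gene (vertical axis) in each library, by all exons on the left and by principal transcript on the right. BID and BCL2L11 hold most of the bar in the untreated libraries, and BBC3 and PMAIP1 in the salinomycin libraries.

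A ratio of 2 genes within a library does not depend on scaling between libraries, and 14 pairs were formed from proteins of the family that bind each other or share a role. Ratios are given as log2 of 1 gene's value over the other's, without a length correction, and were not tested. BAK1 against BCL2L1 was -4.80, -5.04 and -4.96 in untreated replicates 1, 2 and 3 and -3.16, -3.17 and -3.15 with salinomycin, a shift of 1.78. BAX against BCL2L1 shifted by 0.61, from -1.66 ± 0.0565 to -1.05 ± 0.0204 (SD, n = 3 per group). Every salinomycin library thus held more effector transcript per BCL2L1 transcript than every untreated library, for both effectors.

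Against MCL1 the picture differed. BAX against MCL1 lay at 0.22, -0.013 and 0.14 without and -0.13, -0.011 and 0.036 with salinomycin, and the groups overlapped. It was the only overlap among the 14 pairs, and BAX and MCL1 are the members that did not pass. The pairs reuse the same 10 genes, and the groups lay apart for 83% of all tested genes taken singly. The share over other gene pairs was not computed, so the count of pairs does not set the family apart. BAK1 against MCL1 shifted by 1.01, from -3.16 ± 0.211 to -2.15 ± 0.0947. MCL1 against BCL2L1 itself shifted by 0.76, from -1.77 ± 0.11 to -1.01 ± 0.0951.

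For BH3-only genes and the guards their proteins bind, HRK against BCL2L1 shifted most, by 4.82, from -10.3 ± 0.699 to -5.49 ± 0.22. BBC3 against BCL2L1 shifted by 1.71 and PMAIP1 against MCL1 by 0.60. BCL2L11 moved the other way, by -1.20 against BCL2L1 and by -1.96 against MCL1. BBC3 against BCL2L11, genes of proteins that bind the same guards, went from -1.31 ± 0.252 to 1.603 ± 0.207, so the order of the pair turned in all 3 libraries. That order also turned per kilobase of exon. BID against BAK1 shifted from 0.77 ± 0.151 to -2.35 ± 0.141. Whether the order of this pair turned depends on the length used. Per kilobase of all exons BAK1 was the higher of the pair in every library of both groups. By principal transcript length BID had the higher mean without salinomycin (257 against 176 units per kilobase) and BAK1 with it (365 against 61.2).

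**Figure D4:**
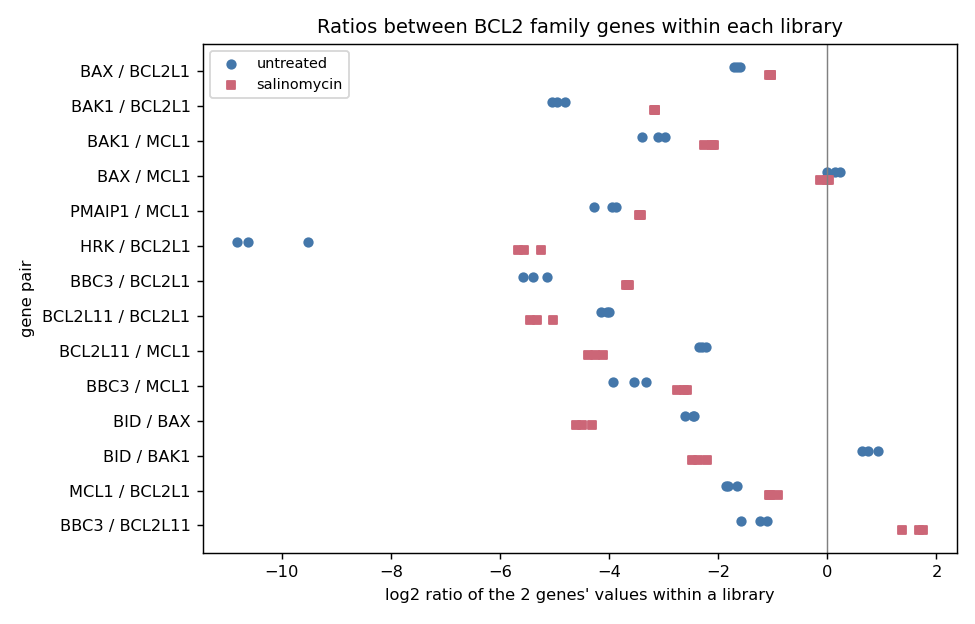
Log2 ratio of each gene pair within each library (horizontal axis, no length correction), circles for untreated and squares for salinomycin libraries. The groups overlap only for BAX against MCL1, the members that did not pass. Since no length enters, the place of 0 says nothing about which gene of a pair is the more abundant.

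The other genes of the mitochondrial pathway were taken from 8 lists holding 62 genes, of which 58 were tested, 31 rose and 18 fell. Their median log2 change was 0.22, against 0.022 over all tested genes, 81.9% of which were called (41.6% higher and 40.2% lower). The counts given below for single lists of a few genes thus do not by themselves set a list apart. The 3 tested other guards all rose. BCL2L2, the gene of BCL-w, rose 2.14-fold, from 690 ± 16.0 to 1481 ± 22.5 units (SD, n = 3 per group), with a limma adjusted p of 1.82e-09. BCL2L12, an atypical relative, rose from 113 ± 26.1 to 200 ± 7.53 units and BCL2A1, the gene of BFL-1, from 27.9 ± 5.59 to 44.5 ± 6.25 units. The call of BCL2A1 was lost without salinomycin replicate 3 (log2 change 0.55, adjusted p = 0.0514), and BCL2L10 was too low to be tested, at 11.7 units or less in every library.

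All 3 tested genes of the other multi-domain members fell, BCL2L15 from 51.7 ± 7.85 to 14.6 ± 0.503 units, BOK from 267 ± 48.3 to 153 ± 28.6 and BCL2L13 from 1342 ± 40.4 to 1175 ± 22.4. BOK is a pore-forming effector like BAX and BAK, and the fall of BCL2L13 did not hold with library size alone (0.000). In the list of other BH3-only and BH3-like genes 2 of 6 rose and 3 fell. BMF, a BH3-only gene tied to the cytoskeleton, fell 2.69-fold, from 190 ± 14.8 to 70.0 ± 5.12 units. BAD, whose product binds BCL2, BCL-xL and BCL-w, rose 1.604-fold, and BNIP3L, a receptor for removal of mitochondria, rose 1.73-fold. BIK, whose product acts at the endoplasmic reticulum, was too low to be tested, at 6.57 units or less.

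Downstream of the pore, 7 of 11 genes of the apoptosome and caspases rose and 2 fell. CYCS, the gene of cytochrome c, was at 1345, 1399 and 1178 units without and 6993, 6103 and 6363 units with salinomycin, a 4.96-fold rise (log2 change 2.31, SE 0.071; limma adjusted p = 4.85e-11). CYCS has many processed pseudogenes, among which counting could split reads. DIABLO, whose product frees caspases from their inhibitors, was at 47.6, 65.96 and 48.0 units without and 465, 398 and 455 units with salinomycin, an 8.10-fold rise. GENCODE 29 lists a second gene under the symbol DIABLO and the gene AC048338.1 on overlapping exons of the same strand, so how its reads were assigned is uncertain. CASP9, the initiator caspase of the apoptosome, rose from 324 to 801 units (log2 change 1.305), and APAF1, its scaffold, by 0.32. CASP6, an executioner caspase gene, fell 2.82-fold from 338 ± 26.3 to 119 ± 9.495 units. CASP8, whose product cuts BID, fell by 0.26 on the log2 scale, a call that was lost with library size alone (-0.072). CASP9, APAF1 and CASP8 lay outside the rule for named genes and were picked after their values were seen.

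Of 7 inhibitors of apoptosis 4 rose and 2 fell. XIAP, a direct inhibitor of caspases, rose 2.20-fold, from 1244 ± 50.3 to 2742 ± 172 units, with a limma adjusted p of 3.61e-09. BIRC2, a ubiquitin ligase of death receptor complexes, rose 1.78-fold, and BIRC5, the gene of survivin, fell from 29.3 ± 9.34 to 15.3 ± 3.30 units. Without untreated replicate 1, its highest library, BIRC5 no longer passed (adjusted p = 0.0611). DIABLO and CYCS on one side and XIAP and BIRC2 on the other, genes of opposite action on caspases, were thus higher in the same libraries.

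**Figure D5:**
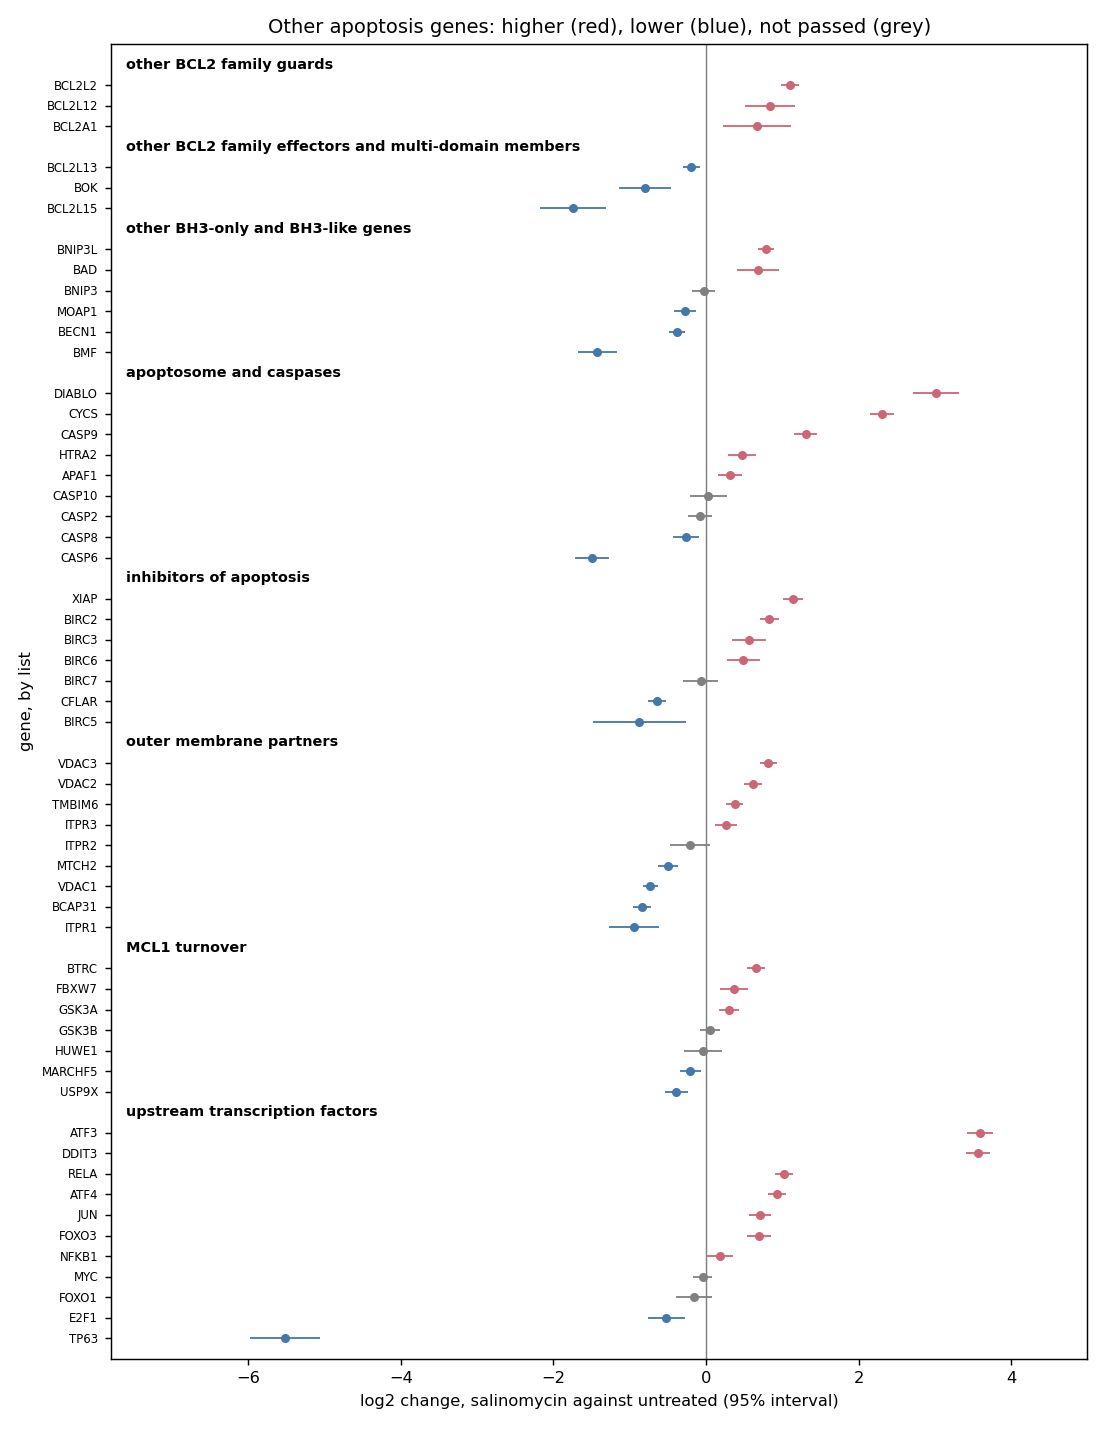
Log2 change with 95% interval (horizontal axis) of tested genes of 8 lists, less those not reported here, red where higher, blue where lower and grey where not passed. DIABLO and CYCS lead the apoptosome list, and TP63 lies furthest to the left.

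Among 9 outer membrane partners 4 rose and 4 fell. VDAC3, a porin gene, rose from 1961 ± 96.3 to 3453 ± 93.1 units. BCAP31, whose product links the endoplasmic reticulum to caspase-8, fell 1.79-fold and ITPR1, a calcium release channel gene, fell 1.92-fold. For the turnover of MCL1 protein, 3 of 7 genes rose and 2 fell. The ubiquitin ligase genes BTRC and FBXW7, whose products mark MCL1 for breakdown, rose 1.57-fold and 1.29-fold. USP9X, which removes that mark, fell 1.31-fold, from 6206 ± 513 to 4740 ± 322 units, with a limma adjusted p of 0.000232. Of the other ligase genes of that list, MARCHF5 fell (log2 change -0.21, limma adjusted p = 0.00842, a call lost with library size alone) and HUWE1 did not pass (-0.035, adjusted p = 0.785), both named after their values were seen. The changes came beside an MCL1 transcript that did not pass, and MCL1 protein was not measured.

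Of 12 tested transcription factor genes that act on the family 8 rose and 2 fell. The number that rose was 6 with upper-quartile scaling and with the replicate number as a block. It was between 6 and 8 when each library was left out. DDIT3, the gene of CHOP, was at 235, 282 and 252 units without and 2926, 3171 and 3039 units with salinomycin, and ATF3 rose from 197 ± 21.5 to 2365 ± 59.9 units. Both are stress-induced factors, and CHOP is known to act on BH3-only genes. Of the BH3-only members 3 rose and 2 fell, and a link to DDIT3 was not tested. FOXO3, a forkhead factor known to raise BCL2L11 and BBC3, rose from 391 to 632 units (log2 change 0.69). Here BBC3 rose and BCL2L11 fell, and a link to FOXO3 was not tested. FOXO1, another forkhead gene of the list, did not pass (log2 change -0.16, limma adjusted p = 0.193). FOXO3 and FOXO1 were named after their values were seen. TP63, a factor of epithelial cells, fell 45.6-fold, from 563 ± 26.1 to 11.8 ± 4.13 units. RELA, the gene of a subunit of NF-kB, which is known to raise BCL2L1, went from 1577 ± 83.2 to 3207 ± 56.6 units, a 2.04-fold rise with a limma adjusted p of 3.33e-09. NFKB1, the gene of its partner subunit, had a log2 change of 0.18 (limma adjusted p = 0.0435). The call of NFKB1 was weak: the adjusted p was 0.252 with upper-quartile scaling and 0.0509 with the replicate number as a block, and NFKB1 also failed without any 1 of 4 libraries. RELA and NFKB1 were named after their values were seen.

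The authors' deposited table gave log2 changes of 4.06 for HRK, -1.87 for BID, -1.71 for BCL2L11, 1.24 for BAK1, 1.17 for BBC3, 0.834 for PMAIP1, 1.01 for BCL2 and -0.523 for BCL2L1. The authors' deposited table also called MCL1 higher (0.239, adjusted p = 0.000263) and did not call BAX (0.0876, adjusted p = 0.231), as library size alone did here. In the authors' deposited table of gene sets, the set for apoptotic signalling after stress of the endoplasmic reticulum had a normalised enrichment score of 1.915 (adjusted p = 0.000997). The authors' deposited table of gene sets gave -1.491 (adjusted p = 0.0219) for the hallmark set of apoptosis and -1.496 (adjusted p = 0.142) for the activation of BH3-only proteins. Closer to the mitochondrial step, the authors' deposited table of gene sets gave 0.733 (adjusted p = 0.952) for release of cytochrome c from mitochondria. It gave -1.04 (adjusted p = 0.606) for the intrinsic pathway of apoptosis. The sets thus scored in both directions. The last 2 and the set for the activation of BH3-only proteins did not pass, and which genes the sets hold was not analysed here.

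The genes whose profile over the 6 libraries lay nearest to that of HRK, out of 13087 others, were TMEM40, GK and RHCE, with a root mean square difference of 0.151, 0.195 and 0.208 on the log2 scale. Their untreated means were 13.2, 37.8 and 4.28 units. TMEM40 and RHCE were thus low like HRK, and whether their place holds under another pseudocount was not tested. Nearest to BID were LPAR6, SIM2 and CALB2, at 0.0714, 0.0744 and 0.0817. With 2 groups such likeness rests mostly on a similar log2 change, which was 4.08 for TMEM40 and -2.00 for LPAR6.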

How the data were processed

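RNA-seq values of 6 libraries, 3 per group, were used. The deposited signal values are whole numbers, rescaled by the authors, with totals within 0.693% of each other and 1 in place of 0. The submitters' processing notes name GRCh38. Aligner, counter and strand handling are not given in the sources used here. Beside the values, per the file headers, stood the authors' log10 means, log2 fold changes, linear fold change ratio, test score and p-values, and for gene sets the authors deposited an enrichment score with p-values.

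After taking away that 1, each library was divided by its total times its TMM factor, relative to the other libraries (divisors 0.925 to 1.08). Genes with 10 or more in at least 3 libraries entered limma 3.58.1 (R 4.3.3, mean-variance trend) on a log2 scale with a pseudocount of 1, 13088 genes in all. The fit was also run on simulated data in which far fewer genes changed than here. That run cannot show how the scaling or the fit behaves where most genes change. Reads per library were estimated from rounding steps by likelihood. They are estimates, and 95% counting intervals (exact conditional binomial) cover counting error only. Any 2 libraries of the same group differed beyond sampling noise (chi-square of 2.86 to 6.74 per gene), so each counted as 1 sample. P-values measure the spread between these libraries.

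Exon lengths and coordinates came from GENCODE 29, 1-based. The members, lists and rules were chosen with earlier results of these data known. Named genes were the 10 members, in each list the 3 called genes of largest log2 change, and the 3 genes most like the member that rose most and the one that fell most. Some genes of the lists are counted but not reported here by name. Alternatives were other scalings, pseudocounts and filters, limma-voom on estimated reads, a replicate block and leaving out each library.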

Additional observations from a re-analysis of the deposited data

How the results depend on the processing

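Apart from BAX and MCL1, the 8 called members kept their direction and their call under every alternative that gave a value (BCL2 was not tested with a filter of 50). BAX had a log2 change of 0.082 with library size alone and -0.1954 with upper-quartile scaling, and -0.1588 to -0.06572 when each library was left out in turn. MCL1 had 0.2339 with library size alone and -0.04349 with upper-quartile scaling. Numbers of lower genes fell to 1 in the apoptosome and caspase list and to 1 in the MCL1 turnover list with library size alone, and to 1 among inhibitors of apoptosis with a filter of 50. The last was between 1 and 2 when each library was left out. Of all tested genes 6461 were called higher and 4353 lower with library size alone, against 5451 and 5266. The labels do not say that replicate numbers mark a shared batch, and deviations of same-numbered libraries correlated by -0.172 to -0.013, with 0 of 6 libraries closest to their own number. With the replicate number as a block, 5 members were higher and 3 lower, BCL2 had an adjusted p of 0.0125, and 5325 and 5130 of all tested genes were called. Low depth limits BCL2 and HRK most. Where 1 library was left out, its group was taken to vary like the other.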
